A study of Mus musculus with 32 samples.

Results

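Ubiquitin-conjugating enzymes, or E2s, were examined as a family from the mouse oocyte through preimplantation development to embryonic stem cells. Members were all genes whose symbol begins with Ube2, without pseudogene symbols containing -ps, and 37 genes met this rule in each of the 3 deposited tables, of 24013 genes in the stage table and 22536 in each knockdown table. Ube2cbp matches by symbol only and is not an E2, but it was kept as a member in the sums, counts and tests. Polyadenylated RNA was sequenced with Smart-seq2, slightly modified, a method that copies whole transcripts from very few cells. Values were FPKM, fragments counted relative to transcript length and sequencing depth, which allow levels to be compared between genes. The stage table held 1 deposited value per gene and stage, made from 3 samples for the inner cell mass (ICM) and from 2 for each of the others, which were MII oocytes, zygotes, embryos at the early 2-cell, 2-cell, 4-cell and 8-cell stages, and R1 embryonic stem cells (mESC). Oocytes came from superovulated C57BL/6N females, and embryos from such females mated to DBA/2N males. The ICM was obtained from blastocysts by immunosurgery, and R1 cells, a mouse stem cell line, were grown in LIF and serum. Knockdown values were given library by library. At the 8-cell stage 4 libraries were controls and 4 had Nr5a2 knocked down, and among blastocysts 3 were controls and 4 had Gata4 knocked down. Embryos for the knockdowns were of the same cross and were cultured in CZB medium with glutamine after injection of siRNA, which lowers an mRNA without removing the gene.

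Ubiquitin is activated by an E1 enzyme, passed to the active cysteine of an E2, and transferred to a substrate with the help of an E3 ligase. The E2 often decides which kind of ubiquitin chain is built, and so whether the substrate is degraded, moved or used as a signal. After fertilization the embryo removes maternal mRNA and protein and switches on its own genome, and ubiquitin-dependent degradation is part of this handover. The anaphase-promoting complex (APC/C), an E3 that drives each cleavage division, works with the E2s Ube2c and Ube2s.

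Promoter sequences are shown for Ube2c and Ube2t, because Ube2c held the highest level of the family from the 2-cell to the 8-cell stage and both have repeated CCAAT letters, and for Ube2b, because it rose in the Nr5a2 knockdown. Sequences were from RefSeq (GRCm38.p6), covering 250 bases before to 50 bases after the start site, and 30 of the 37 members matched, with 41 windows. Capitals mark CCAAT or its reverse complement ATTGG, letters bound by the factor NF-Y. In Ube2c they also mark TTCAAA, the reverse complement of TTTGAA, which is the core of the CHR, a promoter element known from genes of mitosis. The windows were Ube2c at chr2:164769679-164769978 on the plus strand, Ube2t at chr1:134962315-134962614 on the plus strand and Ube2b at chr11:52000442-52000741 on the minus strand.
Ube2c: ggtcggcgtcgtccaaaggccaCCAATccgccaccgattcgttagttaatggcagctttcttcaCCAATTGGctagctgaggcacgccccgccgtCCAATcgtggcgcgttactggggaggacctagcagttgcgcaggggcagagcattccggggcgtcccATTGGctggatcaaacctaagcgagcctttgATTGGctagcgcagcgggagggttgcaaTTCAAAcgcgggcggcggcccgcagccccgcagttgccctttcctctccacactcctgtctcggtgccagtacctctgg
Ube2t: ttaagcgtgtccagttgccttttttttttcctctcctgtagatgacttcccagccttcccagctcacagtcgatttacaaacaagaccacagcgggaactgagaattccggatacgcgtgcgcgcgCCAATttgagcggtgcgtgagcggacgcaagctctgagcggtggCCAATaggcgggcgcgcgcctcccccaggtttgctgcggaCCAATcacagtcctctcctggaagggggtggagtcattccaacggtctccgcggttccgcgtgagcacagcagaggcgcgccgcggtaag
Ube2b: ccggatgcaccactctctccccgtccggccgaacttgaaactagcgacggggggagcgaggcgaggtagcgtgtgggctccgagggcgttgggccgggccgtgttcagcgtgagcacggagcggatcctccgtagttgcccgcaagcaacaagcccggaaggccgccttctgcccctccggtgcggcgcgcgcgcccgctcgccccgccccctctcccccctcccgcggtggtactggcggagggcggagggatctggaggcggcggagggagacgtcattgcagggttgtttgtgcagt
The Ube2c window held 6 CCAAT matches on both strands together, of which one pair overlaps in CCAATTGG, and 1 TTTGAA match at -29 from the start site. Of all 32851 promoter windows, 26 (0.0791%) held as many CCAAT matches or more. Ube2t held 3, at -124, -80 and -40, as did or exceeded 3.37% of all windows. Since both were chosen for these repeats, the shares describe them and test nothing. A Ube2f window also held 3, at -176, -125 and -62, with TTTGAA at -41. Neither Ube2b window held any of the 4 motifs searched on both strands. The first, AAGGTCA, known for NR5A2, occurred in 4.72% of all windows and in 1 of the 41 windows of members, in Ube2f. The motif of GATA factors searched for, AGATAA, occurred in 11.2% of all windows and in 1 of the 41, in Ube2h. TTTGAA occurred in 17.9% of all windows and in 4 of the 41 (Ube2c, Ube2d2b, Ube2f and Ube2z). CCAAT occurred in 37.4% of all windows and in 9 of the 41, in 9 members. For each motif the share among windows of members was below that of all windows. A match describes letters and not a bound site. Ube2e3 had no entry.

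The targeted genes and the libraries were checked first. Nr5a2 stood at 23.6, 20.3, 13.1 and 25.2 FPKM in 8-cell controls 1 to 4 and at 3.76, 4.25, 6.72 and 6.6 FPKM in knockdowns 1 to 4, with no overlap. Gata4 stood at 3.18, 0.716 and 5.44 FPKM in blastocyst controls and at 0, 0.368, 0 and 0 FPKM in Gata4 knockdowns. Rn45s, the 45S pre-ribosomal RNA, was listed at 0 in blastocyst control 2 and in Gata4 knockdowns 1 and 2, and at 37959 to 44718 FPKM in the other blastocyst libraries. In the stage table Rn45s was above 0 in the MII oocyte (6967 FPKM), early 2-cell (6829) and mESC (2555) columns and at 0 in the others, and its part in differences between these columns was not tested. Relative depth, read from the steps between low FPKM values, differed 2.97-fold between the deepest and the shallowest 8-cell library. It differed 1.6-fold among blastocyst libraries with Rn45s and 1.77-fold among those without. The summed level of 5 oocyte markers was 5250 FPKM in MII oocytes and 2.16 in mESC, cumulus cell and fibroblast markers summed to 0.104 and 0 in MII oocytes, and 3 pluripotency markers summed to 445 FPKM in the ICM. Cumulus cell markers summed to 23.1, 46.1 and 18.6 FPKM in 2-cell, 4-cell and 8-cell embryos, where 1 of the 5 reached 1 FPKM. In the 8-cell control and knockdown libraries they summed to 9.44 to 32.5 FPKM. Has2, Ptx3, Fshr and Cyp11a1 were at 0 in the 4-cell column and in these libraries, apart from Has2 in Nr5a2 knockdown 3. Outside knockdown 3 these sums were thus Amhr2 alone. Trophectoderm markers summed to 162 FPKM in the ICM column and 2150 to 4316 in the blastocyst libraries. Fewer cells of a type and less RNA per cell cannot be told apart in these bulk samples.

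E2 transcripts together made up 1229 FPKM in MII oocytes, 1970 in zygotes, 1655 in early 2-cell, 1359 in 2-cell, 1519 in 4-cell and 1595 in 8-cell embryos, 1368 in the ICM and 874 in mESC. As a share of all FPKM other than Rn45s, a pre-ribosomal RNA, this was lowest in MII oocytes (0.251%), closely followed by mESC (0.258%). It was highest in zygotes (0.625%). The leading member changed between the early 2-cell and the 2-cell column. Ube2d3 gave 40.6% to 49.7% of the E2 sum from the MII oocyte to the early 2-cell stage, and Ube2c gave 32.3%, 43.9% and 46.0% at the 2-cell, 4-cell and 8-cell stages. In the ICM no member dominated, and the highest, Ube2d3, gave 15.4%. Averaged over the 8 stages the highest members were Ube2d3 (348 FPKM), Ube2c (309), Ube2d2a (97.7), Ube2a (83.2) and Ube2t (71.8).

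**Figure D1:**
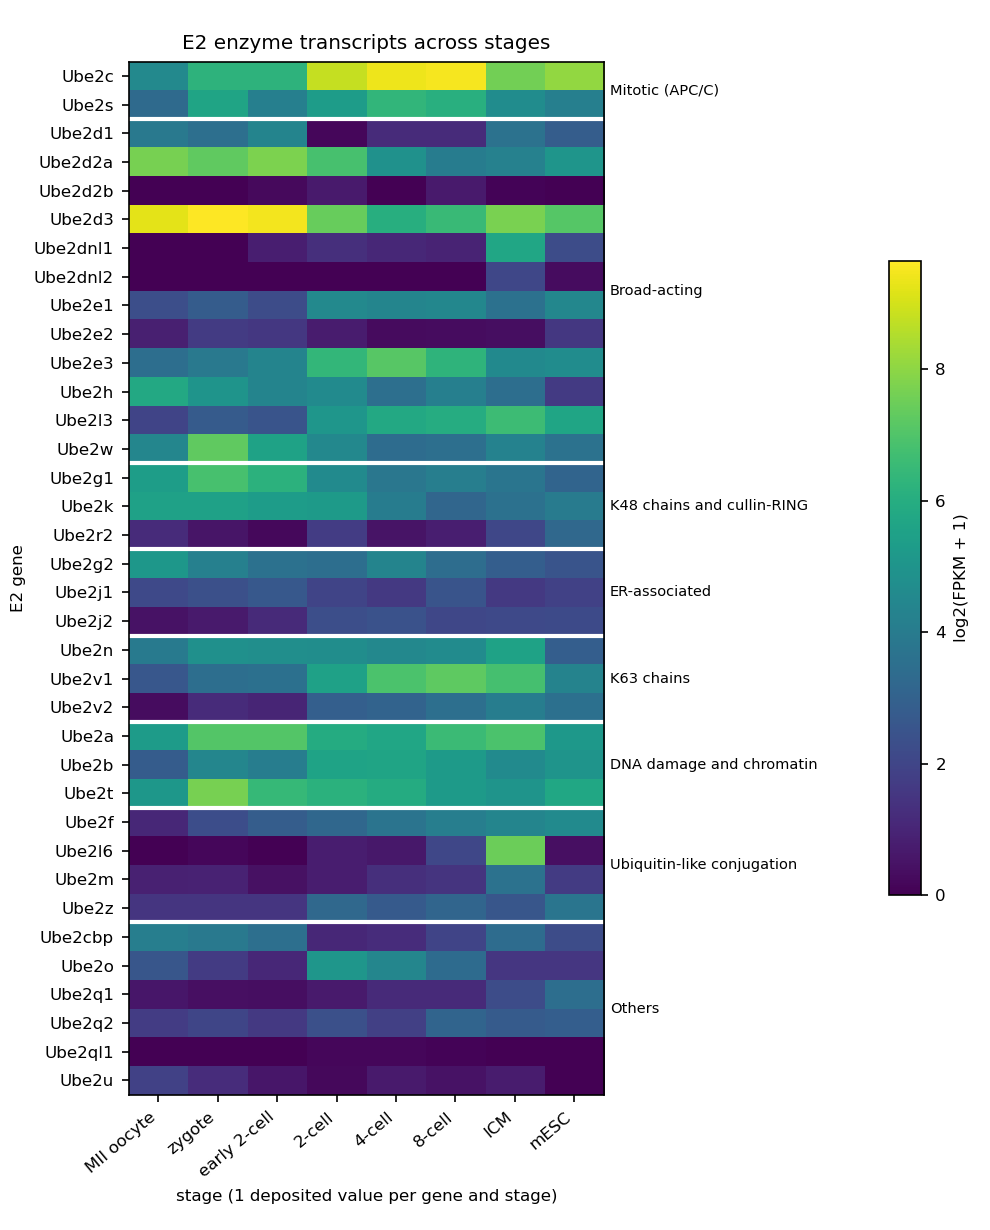
Level of 36 of the 37 Ube2 genes (rows, grouped by role) in the 8 stages (columns) as log2(FPKM + 1), with 1 deposited value per cell and no replicates. Ube2d3 is brightest from the MII oocyte to the early 2-cell stage, Ube2c from the 2-cell to the 8-cell stage, and Ube2l6 is bright in the ICM alone, at 176 FPKM.

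With 1 value per stage, differences between stages were not tested. A member was counted as higher or lower where neighbouring stages differed by at least 1 in log2(FPKM + 1) and the higher one reached 5 FPKM. From the MII oocyte to the zygote 8 members were higher and 0 lower, beside 12.6% of all genes at 5 FPKM or more that were higher and 21.6% lower. Among them were Ube2a, Ube2b, Ube2c, Ube2g1, Ube2s, Ube2t and Ube2w, and the 20 members at 5 FPKM had a median difference of 0.82 against -0.33 for all genes. From the zygote to the early 2-cell stage 0 were higher and 3 lower (Ube2s, Ube2t and Ube2w), beside 5.36% and 8.58% of all genes. The MII oocyte and early 2-cell columns are those with Rn45s above 0, while the zygote column lists it at 0. The widest turnover came from the early 2-cell to the 2-cell stage, with 10 members higher and 7 lower of 25 at 5 FPKM. At that step 34.7% of all genes were higher and 34.3% lower, so the members' share was near that of all genes. With the zygote in place of the early 2-cell column, both with Rn45s at 0, 9 members were higher and 8 lower, beside 33.7% and 36.3% of all genes. All 9 and 7 of the 8 were also in the first count.

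Later steps moved fewer members. From 2-cell to 4-cell 1 was higher (Ube2v1) and 5 lower (Ube2d2a, Ube2d3, Ube2h, Ube2k and Ube2w), beside 24.1% and 17.3% of all genes. After median scaling of the columns this balance turned, with 4 higher and 3 lower. From 4-cell to 8-cell 1 was higher (Ube2q2, which is uncertain because of a near-identical copy) and 1 lower (Ube2o), beside 6.90% and 9.71%, and after median scaling 2 were higher and 0 lower. From 8-cell to ICM 6 were higher and 4 lower, beside 27.8% and 21.9%, and after median scaling 5 and 5. From ICM to mESC 3 were higher (Ube2q1, Ube2r2 and Ube2z) and 8 lower, beside 11.6% and 40.6%, and the mESC column lists Rn45s above 0. Median scaling gave 6 higher and 7 lower at this step. Of the 31 members that reached 5 FPKM in at least 1 stage, 5 (16.1%) had their highest level in the zygote, beside 8.06% of all genes at that level, and 4 (12.9%) in the MII oocyte, beside 26.2%. The ICM held the highest level of 6 (19.4%), near the 17.7% of all genes. The zygote and ICM columns list Rn45s at 0 and the MII oocyte column above 0, and its part in these shares was not tested.

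In the stage columns both E2s of the APC/C had their highest levels in cleavage stages. Ube2c, which starts ubiquitin chains on mitotic substrates, stood at 22.2 FPKM in MII oocytes, 75.1 in zygotes and 75.1 in early 2-cell embryos. It then stood at 439, 667 and 733 FPKM in 2-cell, 4-cell and 8-cell embryos, and at 191 in the ICM and 270 in mESC. The highest value was 33.0 times the lowest, and the difference of -1.93 from 8-cell to ICM was the largest drop of any member at that step. Ube2s, which lengthens these chains through lysine 11 of ubiquitin, stood at 9.09, 48.4, 16.7, 39.6, 79.5, 67.2, 25.1 and 17.1 FPKM in the order of the stages. It was highest at the 4-cell stage and low at both ends. In control libraries, normalized separately, Ube2s stood at 0 to 1.70 FPKM at the 8-cell stage and 1.13 to 5.04 in whole blastocysts. Its high level in cleavage stages thus rests on the stage columns alone. Of 15 genes of the APC/C and its mitotic partners, 5 were higher and 1 lower from early 2-cell to 2-cell, where 34.7% of all genes were higher and 34.3% lower, so the share of higher genes was near that of all genes. Cdc20, the APC/C activator of mitosis, stood at 205 FPKM in MII oocytes, 571 in 4-cell and 434 in 8-cell embryos and 73.3 in the ICM.

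In the stage columns Ube2d1, Ube2d2a and Ube2d3, which pair with many RING ligases, were lower after the early 2-cell stage. Ube2e1 and Ube2e3, close relatives with a longer N terminus, were higher in the 2-cell to 8-cell columns. Ube2d3 stood at 611, 799 and 705 FPKM in MII oocytes, zygotes and early 2-cell embryos, then at 170, 65.4 and 91.4 in 2-cell, 4-cell and 8-cell embryos, 210 in the ICM and 135 in mESC. Ube2d2a stood at 204, 155, 215, 114, 28.5, 15.5, 17.8 and 31.8 FPKM in the same order, a difference of -1.97 from 2-cell to 4-cell. Ube2d1 stood at 14.0, 10.4 and 19.2 FPKM up to the early 2-cell stage, at 0.133 in 2-cell embryos, at 1.27 and 1.28 in the next stages, and at 11.4 in the ICM and 6.20 in mESC. Its difference of -4.15 was the largest drop of any member from early 2-cell to 2-cell. All 3 were thus lower in 4-cell embryos than in oocytes. Ube2d2a and Ube2d3 have 3 and 4 near-identical copies elsewhere in the genome, which makes their values uncertain where a read matches more than one of them; Ube2d1 has none.

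Ube2e3 stood at 10.1, 14.0 and 19.5 FPKM up to the early 2-cell stage, at 83.4, 141 and 76.8 in 2-cell, 4-cell and 8-cell embryos, and at 23.1 and 25.0 in the ICM and mESC. It was the main Ube2e gene in every stage, with 51.8% (mESC) to 87.6% (4-cell) of the summed level of Ube2e1, Ube2e2 and Ube2e3. Ube2e1 stood at 4.01, 5.93 and 3.73 FPKM up to the early 2-cell stage and at 22.0, 19.7 and 21.3 in the next stages, while Ube2e2 went the other way at a low level, from 2.22 in zygotes and 1.93 in early 2-cell embryos to 0.663, 0.214 and 0.239 in the next stages. In the 8-cell controls, normalized separately, the means were 21.2 FPKM for Ube2e3 and 5.05 for Ube2e1. Their higher 8-cell level thus rests on the stage columns alone. Ube2e3 has no near-identical copy, while Ube2e1 has 1. Ube2h, the E2 of the CTLH ligase complex, ran the other way, from 54.9 FPKM in MII oocytes to 10.4 at the 4-cell stage and 2.10 in mESC. Ube2l3, which serves HECT and RBR ligases, stood at 2.96 FPKM in MII oocytes and 97.8 in the ICM, but it has 8 near-identical copies and Ube2h has 2.

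Ube2w, which attaches ubiquitin to the amino terminus of proteins, had a single high value. It stood at 20.4 FPKM in MII oocytes, 155 in zygotes, 45.9 in early 2-cell and 21.8 in 2-cell embryos, and between 9.66 and 18.6 afterwards. It had the largest difference of any member into the zygote (2.87) and out of it (-1.74). Ube2t, the E2 of the Fanconi anaemia ligase that acts on damaged DNA, stood at 33.8 FPKM in MII oocytes, 201 in zygotes and 86.1 in early 2-cell embryos, then between 30.9 and 71.2. Ube2g1, which extends lysine 48 chains for cullin-RING ligases, stood at 39.8, 112 and 72.4 FPKM in the first columns and at 7.55 to 23.7 afterwards. Their high column was the zygote in each case, which lists Rn45s at 0 while its neighbours list it above 0. Blastocyst libraries with Rn45s had lower Ube2t (log2 difference -1.51), Ube2w (-0.99) and Ube2g1 (-0.79), beside a median of -0.64 for all genes. The part of this in the zygote values was not tested. Ube2k, another lysine 48 E2, was flat at 45.4, 44.5, 39.6 and 37.0 FPKM up to the 2-cell stage and stood at 15.5 and 8.04 in 4-cell and 8-cell embryos. Ube2r2, a partner of cullin-RING ligases, was highest in mESC at 8.47 FPKM.

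**Figure D2:**
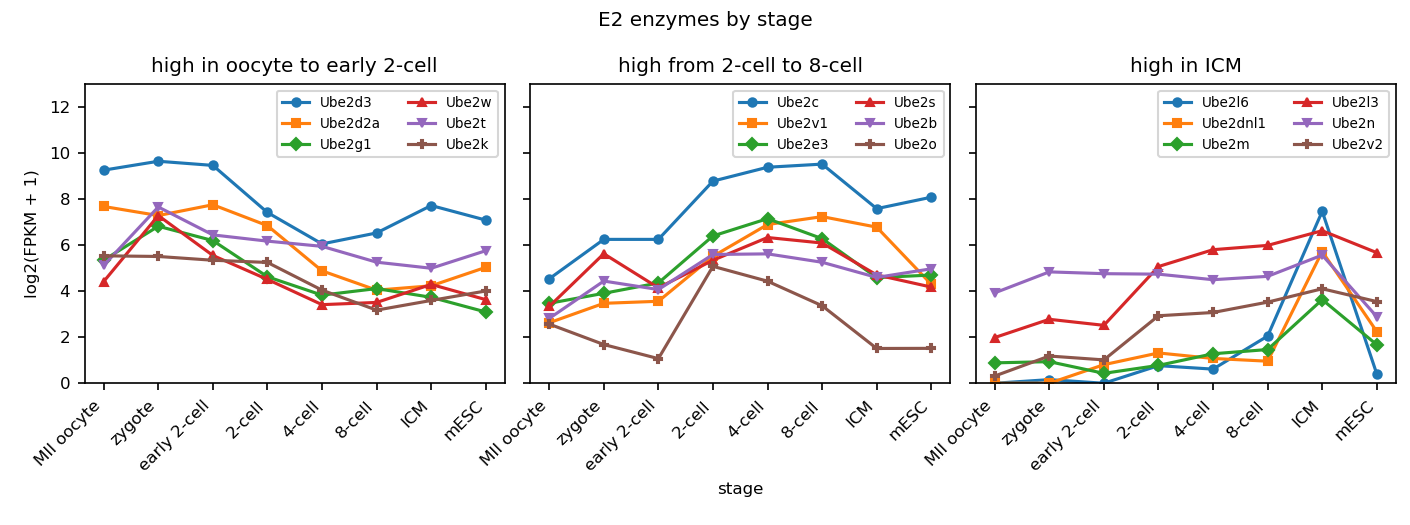
Level as log2(FPKM + 1) against stage for 18 members, grouped by where they were high; each point is 1 deposited value without a replicate. Ube2d3 and Ube2d2a are lower after the early 2-cell stage, Ube2c and Ube2e3 higher, and Ube2l6 and Ube2dnl1 stand out in the ICM at 176 and 51.8 FPKM.

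The Rad6 pair Ube2a and Ube2b, which ubiquitinate histone H2B and the replication clamp PCNA, shifted in their balance. Ube2a stood at 38.0, 134, 132, 60.7, 51.0, 94.9, 121 and 34.2 FPKM in the order of the stages, and Ube2b at 6.04, 20.7, 15.8, 47.3, 48.2, 37.2, 23.2 and 30.4. Ube2b gave 10.7% to 13.7% of their sum up to the early 2-cell stage and 43.8%, 48.6% and 28.2% in 2-cell, 4-cell and 8-cell embryos. It gave 16.1% in the ICM and 47.0% in mESC. In the 8-cell controls, normalized separately, Ube2b gave 47.4% to 53.1%, with Ube2a at a mean of 19.4 FPKM. The 8-cell balance thus differs between the 2 sources. Neither has a near-identical copy.

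Ube2n and its inactive E2-like partners Ube2v1 and Ube2v2 build lysine 63 chains, which signal rather than degrade. Ube2v1 stood at 5.18, 10.1 and 10.8 FPKM up to the early 2-cell stage, at 44.7, 118 and 150 in the next stages, and at 109 in the ICM and 18.7 in mESC. Ube2v2 stood at 0.243 FPKM in MII oocytes and 16.2 in the ICM. Ube2n was steadier, at 14.2 to 27.6 FPKM up to the 8-cell stage, 46.4 in the ICM and 6.42 in mESC. The partners were thus low in oocytes, where Ube2n was not. These 3 genes have 5 (Ube2n), 5 (Ube2v1) and 3 (Ube2v2) near-identical copies. The E2s of degradation at the endoplasmic reticulum were low apart from Ube2g2, at 33.7 FPKM in MII oocytes and 4.64 in mESC. Ube2j1 and Ube2j2 lay between 0.404 and 5.25 FPKM in all stages.

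Members that carry ubiquitin-like proteins differed widely. Ube2l6, the E2 of the interferon-induced modifier ISG15, was listed at 0 in MII oocytes and early 2-cell embryos, at 0.115, 0.699, 0.530 and 3.14 FPKM in zygotes and 2-cell, 4-cell and 8-cell embryos, at 176 in the ICM and at 0.322 in mESC. Its range over the stages, 7.47 log2 units, was the widest of the family, and it had the largest rise into the ICM (5.42) and the largest drop out of it (-7.06). Isg15 itself did not exceed 0.363 FPKM in any stage, and Uba7, the E1 of this pathway, was listed at 0 in all 8. Ube2m, an E2 of NEDD8, which activates cullins, stood between 0.348 and 1.76 FPKM up to the 8-cell stage, at 11.4 in the ICM and at 2.19 in mESC. Ube2f, the other NEDD8 E2, stood at 1.08 FPKM in MII oocytes and 23.4 in mESC. Ube2f has 1 near-identical copy.

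Among the other members, Ube2dnl1 was listed at 0 in MII oocytes and zygotes, stayed at or below 1.49 FPKM up to the 8-cell stage, and stood at 51.8 in the ICM and 3.74 in mESC. Ube2o, a large enzyme with E2 and E3 activity, stood at 4.94, 2.21 and 1.10 FPKM up to the early 2-cell stage, at 32.8, 20.6 and 9.32 in the next stages, and at 1.85 and 1.86 in the ICM and mESC. Its difference of 4.01 was the largest rise of any member from early 2-cell to 2-cell. Ube2d2b, Ube2ql1 and Ube2dnl2 did not exceed 0.638, 0.122 and 3.18 FPKM in any stage. Ube2u, with a highest value of 2.60 FPKM, overlaps an antisense gene, and strand was not used in the counting as far as the sources used here say.

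Stage values and control libraries come from tables normalized separately, and were set side by side without a test. Of 23 members at 5 FPKM or more, 21 were higher in the 8-cell column than in the mean of the 8-cell controls, with a median log2 difference of 1.86 against 0.33 for 5811 genes at that level. For the 11 with a near-identical copy the median was 2.14, and for the 12 without one it was 1.10. Ube2c stood at 733 FPKM and 787 ± 145 (SD, n = 4), while Ube2s stood at 67.2 and 1.06 ± 0.793. The ICM value of Ube2l6 (176 FPKM) stood beside 3.30 to 4.92 FPKM in whole blastocyst controls, and that of Ube2dnl1 (51.8) beside 1 to 3.74. Rn45s was listed at 0 in the 8-cell and ICM columns, and at 24968 to 29618 FPKM in the 8-cell controls. Blastocyst controls 1 and 3 also list it above 0. Its part in these differences was not tested, nor was what else sets these tables apart.

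The Nr5a2 knockdown addresses the dependence of 8-cell expression on NR5A2, an orphan nuclear receptor. Ube2e3 and Ube2b rose, and 0 members fell. Of the 37 members 31 passed the filter of at least 1 FPKM in 4 libraries, so 2 of 31 rose, beside 1.57% of all 8170 genes tested. Of all genes 0.698% fell, and 2.26% changed in either direction. The test was limma on log2(FPKM + 1) with Benjamini-Hochberg adjustment over all genes tested and a threshold of 0.05. On this scale the change of low genes is understated, and the labels name no separate litters or cultures, so p-values measure the spread between these samples alone, technical spread included. All genes together had a median difference of 0.12, and changes are to be read against it. Among all genes tested, 128 were called higher and 57 lower, but 65 and 80 after median scaling.

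Ube2e3 stood at 18.8, 13.6, 27.5 and 24.9 FPKM in controls 1 to 4 and at 139, 130, 50.8 and 88.0 FPKM in knockdowns 1 to 4. Every knockdown library was above every control library, with knockdown 3 the nearest to them. It rose to a mean of 102 ± 40.6 FPKM against 21.2 ± 6.23 in controls (SD, n = 4 each), a log2 difference of 2.16 (SE 0.32, limma adjusted p = 0.0138). The adjusted p was 0.0525 without control 1 and 0.0932 without a filter on low values. Ube2e3 made up 70.8% to 91.1% of the summed Ube2e level in controls and 95.6% to 98.6% in knockdowns. Ube2e1 stood at 3.39, 4.22, 2.48 and 10.1 FPKM in controls and 6.05, 1.74, 2.08 and 1.99 in knockdowns, with overlap (log2 difference -0.58, SE 0.40, limma adjusted p = 0.439). In the stage table Ube2e3 stood at 141 FPKM in 4-cell and 76.8 in 8-cell embryos, values from a table that was normalized separately.

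Ube2b stood at 21.7, 14.4, 20.7 and 23.3 FPKM in controls and at 52.0, 64.5, 28.4 and 47.8 FPKM in knockdowns. The groups did not overlap, and knockdown 3 was again the lowest. The mean rose from 20.0 ± 3.89 to 48.2 ± 14.9 FPKM, a log2 difference of 1.19 (SE 0.26, limma adjusted p = 0.0441). This call lay close to the threshold and was lost in 12 of 15 alternatives, with an adjusted p of 0.0591 after median scaling. Leaving out any one of the controls or of knockdowns 1, 2 and 4 raised the adjusted p to between 0.0614 and 0.124. Its partner Ube2a stood at 19.1, 16.0, 21.5 and 21.1 FPKM in controls and at 26.8, 20.0, 40.1 and 38.4 FPKM in knockdowns. Knockdown 2 lay within the controls, and the log2 difference was 0.62 (SE 0.24, limma adjusted p = 0.180).

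**Figure D3:**
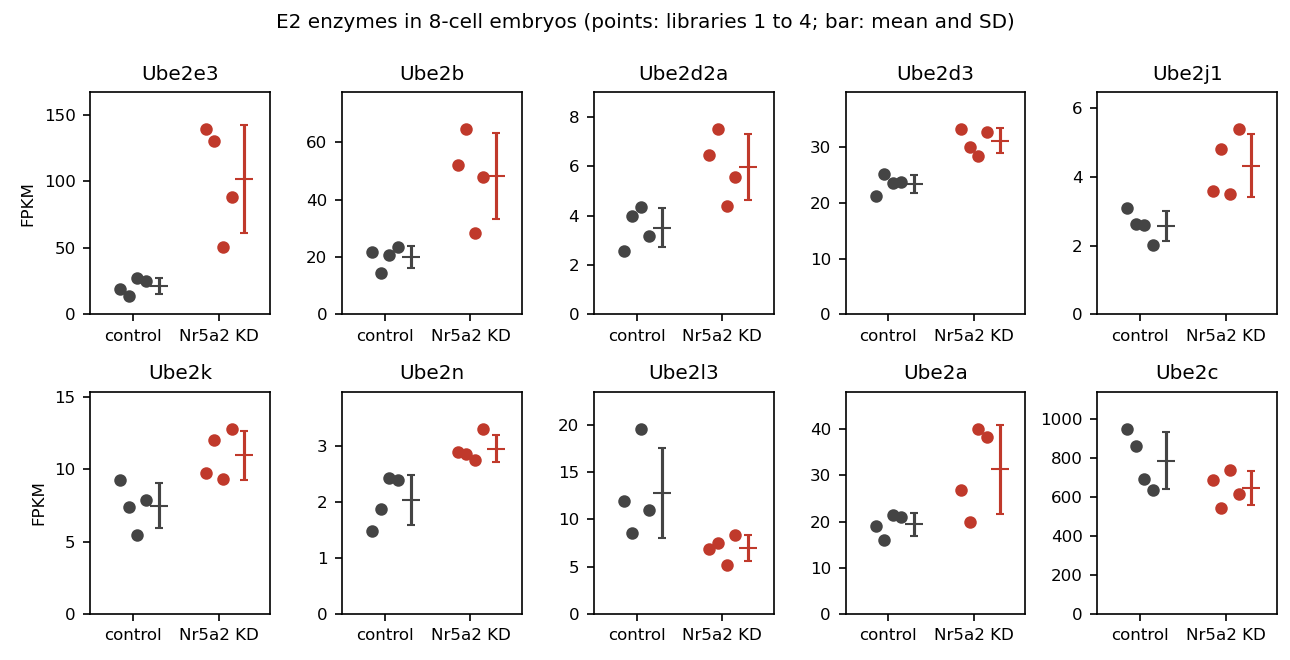
FPKM of 10 members at the 8-cell stage in 4 control libraries and 4 with Nr5a2 knocked down; points are libraries 1 to 4 from left to right and the bar is the mean with SD, on axes that start at 0 and differ between panels. The groups do not overlap for Ube2e3, Ube2b, Ube2d2a, Ube2d3, Ube2j1, Ube2k, Ube2n and Ube2l3, of which Ube2e3 and Ube2b passed the test.

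In all, 7 of 31 members were higher in every knockdown library than in any control (Ube2b, Ube2d2a, Ube2d3, Ube2e3, Ube2j1, Ube2k and Ube2n), beside 8.38% of all genes. One member was lower in this way (Ube2l3), beside 3.45% of all genes, and 8 of 31 had an unadjusted p under 0.05, beside 20.6%. Ube2d2a stood at 2.55, 3.99, 4.34 and 3.17 FPKM in controls and 6.47, 7.49, 4.37 and 5.55 in knockdowns (log2 difference 0.62, limma adjusted p = 0.185). Ube2d3 stood at 21.3, 25.2, 23.6 and 23.8 FPKM in controls and 33.2, 30.0, 28.5 and 32.8 in knockdowns (0.39, adjusted p = 0.218 by limma). Knockdown 3 was the lowest of its group for both and barely above the controls for Ube2d2a. Ube2l3 stood at 12, 8.59, 19.6 and 11 FPKM in controls and 6.91, 7.54, 5.17 and 8.32 in knockdowns (-0.75, limma adjusted p = 0.156). These 3 have near-identical copies and are uncertain.

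Ube2j1, an E2 of degradation at the endoplasmic reticulum, stood at 3.09, 2.62, 2.60 and 2.01 FPKM in controls and 3.59, 4.82, 3.52 and 5.39 in knockdowns (log2 difference 0.57, limma adjusted p = 0.198). Ube2k stood at 9.26, 7.37, 5.47 and 7.86 FPKM in controls and 9.75, 12, 9.34 and 12.8 in knockdowns (0.50, limma adjusted p = 0.238). Both lay just clear of the highest control in 2 knockdown libraries and did not pass the test. Ube2n, uncertain because of its copies, stood at 1.48 to 2.42 FPKM in controls and 2.75 to 3.30 in knockdowns (0.39, limma adjusted p = 0.344).

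Ube2c stood at 950, 864, 695 and 637 FPKM in controls and at 688, 544, 740 and 614 in knockdowns. The groups overlapped, and the log2 difference was -0.27 (SE 0.16, limma adjusted p = 0.350). It remained the largest E2, with 72.4% to 82.2% of the E2 sum in controls and 56.3% to 71.5% in knockdowns, and the E2 sum was 880 to 1155 FPKM in controls and 966 to 1094 in knockdowns. The shares do not overlap while the sums do. Ube2s stood at 1.70, 1.63, 0.898 and 0 FPKM in controls and 0.589, 1.49, 0.739 and 1.33 in knockdowns (0.06, limma adjusted p = 0.935). Ube2v1 stood at 8.15 ± 0.553 and 8.32 ± 1.19 FPKM (0.02, limma adjusted p = 0.972).

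Over the 31 members 26 differences were positive and 5 negative, beside 60.5% positive over all genes, and the median was 0.30 against 0.12. After median scaling this was 20 positive and 11 negative, beside 48.9% positive over all genes, with a median of 0.17 against -0.01. After quantile normalization it was 21 and 10, beside 51.3%, with 0.16 against 0.01. By role, the median was 0.62 for the 3 members of DNA damage and chromatin, 0.39 for the 9 broad-acting members tested, 0.40 for the 5 that carry ubiquitin-like proteins, 0.06 for the 3 of lysine 63 chains and -0.11 for the 2 mitotic ones. Members not tested were Ube2d2b, Ube2dnl2, Ube2e2, Ube2ql1, Ube2r2 and Ube2u, all with group means at or below 1.61 FPKM.

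**Figure D4:**
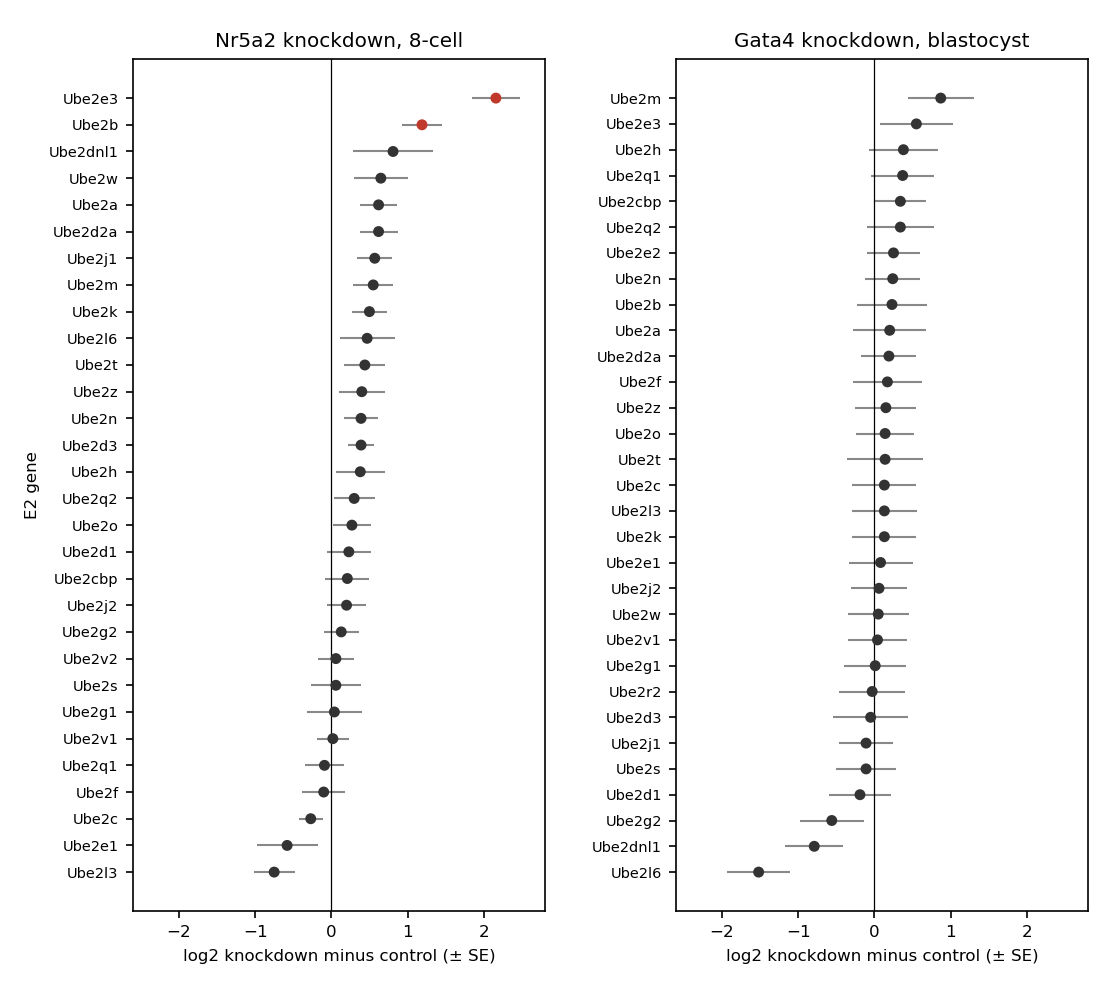
Difference in mean log2(FPKM + 1), knockdown minus control, with its SE, for 30 of the 31 members tested in the Nr5a2 knockdown of 8-cell embryos (left) and 31 of the 32 tested in the Gata4 knockdown of blastocysts (right). Red points passed an adjusted p of 0.05, which were Ube2e3 at 2.16 and Ube2b at 1.19; 0 members passed in the Gata4 knockdown.

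In the rest of the pathway 1 gene was called. Ubb, a polyubiquitin gene that supplies free ubiquitin, stood at 91.7, 103, 93.4 and 94.7 FPKM in controls and at 128, 161, 148 and 166 FPKM in Nr5a2 knockdowns. The groups did not overlap, and Ubb rose by a log2 difference of 0.64 (SE 0.15, limma adjusted p = 0.0462), a call lost in 14 of 15 alternatives, in which the adjusted p reached up to 0.143. It was the 1 called among 7 tested ubiquitin and ubiquitin-like genes, whose median difference was 0.38. Of the E1 enzymes 0 of 8 tested passed (median 0.19), with Uba6, a second E1 for ubiquitin, at 1.22 ± 0.566 and 2.54 ± 0.633 FPKM (limma adjusted p = 0.175). Of the APC/C list 0 of 15 passed (median 0.06). Its Cdc27, a scaffold subunit of the complex, stood at 7.09, 11.6, 9.87 and 10.5 FPKM in controls and 22.0, 15, 15 and 26.3 in knockdowns (0.92, limma adjusted p = 0.0785).

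Of the cullin-RING core 0 of 10 tested passed (median 0.28). Cul4a, a cullin scaffold, stood at 9.91, 6.78, 6.19 and 5.15 FPKM in controls and 2.10, 1.04, 4.97 and 3.04 in knockdowns (-1.16, limma adjusted p = 0.0967), and Arih2, an RBR ligase that works with neddylated cullins, at 80.9 ± 6.92 and 51.6 ± 15.6 FPKM (-0.68, limma adjusted p = 0.117). Cul4a did not overlap between the groups and Arih2 did. Of the other E3 partners 0 of 20 passed (median 0.20), and Rnf168, a ligase of the DNA damage response, stood at 2.52 ± 0.645 and 4.78 ± 1.83 FPKM (0.69, limma adjusted p = 0.185). Of the E2s and E2-fold proteins named otherwise 0 of 7 passed (median 0.31), and Atg10, the E2-like enzyme for ATG12, stood at 1.95 ± 1.39 and 5.02 ± 2.45 FPKM (1.02, limma adjusted p = 0.185). Sumo2 was listed at 0 in all 4 controls although it is used by every cell, so its low values were not read.

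Beside these results, markers of cell types varied between the 8-cell libraries. Pluripotency markers, 2 of 3 above 1 FPKM in most libraries, summed to 94.9 to 202 FPKM in controls and 24.2 to 124 in knockdowns, with Sox2 listed at 0 in 3 controls and knockdown 4. Trophectoderm markers summed to 79.1 to 106 and 93.5 to 135 FPKM, and primitive endoderm markers to 27.6 to 36.9 and 14.3 to 29.8 FPKM. Cdx2 was listed at 0 in control 1 and knockdown 1, and Sox17 in all 4 controls and in knockdowns 1 and 3. Oocyte markers summed to 21 to 36.1 FPKM in controls and 15.9 to 41.2 in knockdowns. Their part in the E2 results was not tested.

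The Gata4 knockdown asks which genes of the blastocyst depend on this zinc-finger factor of the primitive endoderm. In limma 0 of 32 members tested were called, and 3 of all 8782 genes (0.0342%), each of them lower, while 0.0% of all genes were called higher. At an unadjusted p under 0.05 there were 2 members, Ube2l6 and Ube2dnl1, beside 2.30% of all genes. No member was higher in every knockdown library than in any control, as 0.945% of all genes were. The members' median difference was 0.13 against -0.02 for all genes, with 23 positive and 9 negative beside 47.5% positive over all genes. After median scaling it was 24 and 8 beside 54.4%.

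Ube2l6 stood at 4.92, 3.30 and 4.45 FPKM in controls 1 to 3 and at 1.39, 2.71, 0.214 and 0 FPKM in knockdowns 1 to 4. Every knockdown library was below every control, as for 1.43% of all genes, and knockdown 2 was the closest to the controls. The log2 difference was -1.52 (SE 0.41, limma adjusted p = 0.379), which did not pass. Among libraries with Rn45s the difference was -2.37. Among those without, where control 2 is the only control, it was -0.53. Without Gata4 knockdown 2 it was -1.86 and passed (limma adjusted p = 0.00638), while leaving out any other library gave an adjusted p between 0.0978 and 0.981. Isg15 was listed at 0 in all 7 blastocyst libraries. Primitive endoderm markers, of which Gata4 is one, summed to 15.8 to 28.0 FPKM in controls and 6.55 to 28.0 in knockdowns, a sum carried by Gata6, which stood at 7.81 to 26.0 and 6.55 to 26.3 FPKM. Sox17 stood at 0.626, 0.383 and 0.952 FPKM in controls and at 0, 0.121, 0 and 0 in knockdowns, without overlap. Pdgfra stood at 1.53, 0.885 and 1.57 FPKM in controls and at 0.0117, 1.26, 0.0151 and 0 in knockdowns, where knockdown 2 was within the controls. Ube2l6 was also highest in knockdown 2, and the part of these markers in its difference was not tested.

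Ube2dnl1 stood at 1.15, 3.74 and 1 FPKM in controls and at 1.63, 0.482, 0.582 and 0 in knockdowns, with overlap (log2 difference -0.79, SE 0.38, limma adjusted p = 1.0). Ube2m, the NEDD8 E2, stood at 6.98, 16.7 and 7.23 FPKM in controls and at 22.9, 19.8, 15.4 and 15.7 in knockdowns (0.87, SE 0.43, limma adjusted p = 1.0). Within the libraries with Rn45s its difference was 1.03, and within those without, where control 2 is the only control, 0.33. Ube2e3 and Ube2b, which rose in the Nr5a2 knockdown, stood at 17.4, 40.7 and 10.8 against 47.7, 41.0, 17.9 and 21.2 FPKM (0.55, limma adjusted p = 1.0), and at 5.51, 16.3 and 6.57 against 16.2, 14.9, 5.95 and 7.06 FPKM (0.23, limma adjusted p = 1.0). In each, the libraries without Rn45s held the high values. The pathway lists had 0 genes called, with medians between -0.08 and 0.13.

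**Figure D5:**
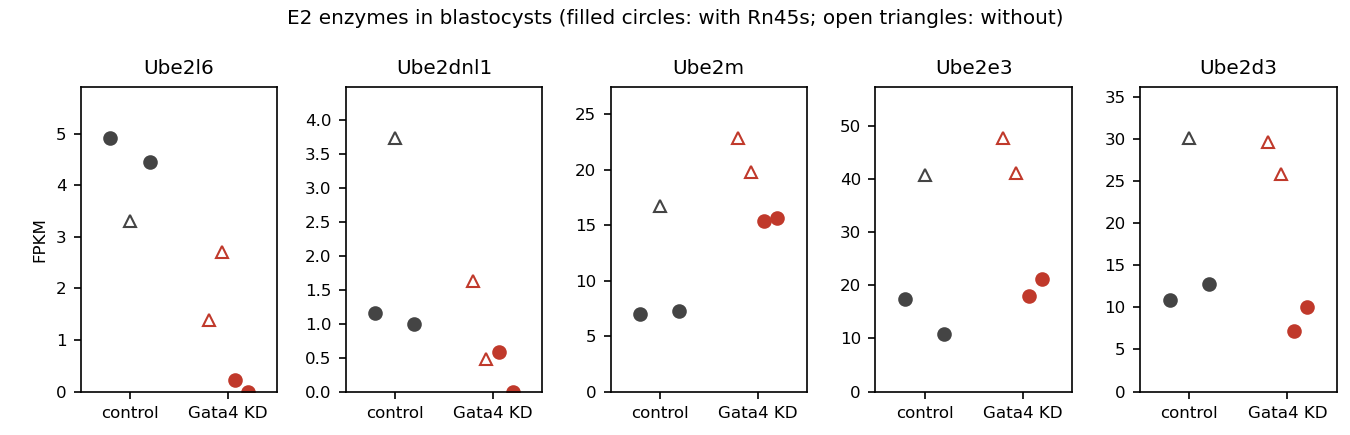
FPKM of 5 members in 3 control and 4 Gata4 knockdown blastocyst libraries, each symbol 1 library, on axes that start at 0 and differ between panels. Open triangles are libraries with Rn45s listed at 0 and lie above the filled circles of the same group for Ube2e3 and Ube2d3, whereas for Ube2l6 all 4 knockdown libraries (0 to 2.71) lie below the controls (3.30 to 4.92).

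E2 values also differed between blastocyst libraries that list Rn45s above 0 and those that list it at 0. The sources used here name no such split, and whether the libraries or their annotation differ is not known. In a fit with both terms 23 of 32 members (71.9%) were lower in libraries with Rn45s at an adjusted p under 0.05 and 0 were higher, beside 51.0% of all genes lower, with a median of -0.73 against -0.64. Ube2t stood at 34.4, 28.5 and 22.4 FPKM in libraries without Rn45s and at 6.54 to 12.4 in those with it (log2 difference -1.51, limma adjusted p = 0.00552). Ube2d3 stood at 30.2, 29.7 and 25.9 FPKM without Rn45s and at 7.25 to 12.8 with it (-1.47, limma adjusted p = 0.00455). Neither gene overlapped between these sets of libraries, a trait whose share over all genes was not computed. They had the largest such differences among the members tested. Both sets hold controls and knockdowns, which is why differences within each set are given for Ube2l6 and Ube2m.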

How the data were processed

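RNA sequencing libraries of 32 samples were analysed from the tables the authors deposited. The authors deposited FPKM values, per stage in one table and per library in the knockdown tables. The submitters' processing notes name CASAVA 1.8, STAR 2.4.0 and the build mm9 for all 32, and Cufflinks 2.2.1 for 20. How the samples of a stage became 1 column is not given in the sources used here, and 30 MII oocyte values were missing, none of an E2. No per-sample column was left unused. Read totals were not used here, so depth is given as relative depth from the steps of FPKM values below 0.4, where the largest misfit over pairs of libraries was 0.72%. The number of reads behind a value is unknown, and no interval was computed from it.

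A gene was tested where at least as many libraries as the smaller group had reached 1 FPKM. On log2(FPKM + 1), limma 3.58.1 with a variance trend (R 4.3.3) compared the groups, with Benjamini-Hochberg adjustment over the genes tested. The fits were tested on simulated data. Libraries were not treated as pairs in the main fits, and the labels do not settle whether replicate numbers pair them. Stage steps had no test. One member and one pathway gene entered the fits and counts but are not reported here by name or drawn. Near-identical copies were transcripts of GENCODE M21 with at least 95% identity over at least 50% of a member's coding sequence, found with minimap2 2.31. Counts and figures came from Python 3.11.15 with pandas 2.3.3, numpy 2.4.6 and matplotlib 3.10.9.

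Members, roles, pathway lists and comparisons were chosen with earlier results of these data known. Members called in a knockdown, or with an unadjusted p under 0.05 and no overlap between groups, were described. So were the largest rise and fall of each stage step, the 5 highest means and the 10 widest ranges over stages. Other members served as examples of their role. Some, such as Ube2h, Ube2l3 and Ube2v2, were given with part of their stage values, and Ube2q1 and Ube2q2 by name alone. Of each pathway list the genes called, or up to 2 with the smallest p, were named, and Isg15, Uba7, Sumo2 and Cdc20 were named besides, after their values were seen. Ube2n and Ube2c in the Nr5a2 knockdown and Ube2m in the Gata4 knockdown were likewise added. Alternatives were the pseudocount, the filter, median scaling, quantile normalization, the replicate block, whether a blastocyst library lists Rn45s and leaving out each library.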

Additional observations from a re-analysis of the deposited data

Results flagged for a closer look

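Of 94 groups of 4 libraries examined among the E2 genes, 5 held a library that stood apart from the others by Dixon's test, and chance flags about 1 in 20 groups, or 5%. Ube2dnl1 was at 0 FPKM in Nr5a2 knockdown 1, against 2.71, 2.97 and 3.79 in the other knockdown libraries. Ube2e1 was at 6.05 FPKM in Nr5a2 knockdown 1, against 1.74, 2.08 and 1.99. Ube2g1 was at 1.91 FPKM in Nr5a2 knockdown 1, against 5.80, 5.65 and 5.71. Ube2j2 was at 2.69 FPKM in Nr5a2 knockdown 3, against 3.66, 3.5 and 3.62. Ube2o was at 7.35 FPKM in 8-cell control 4, against 4.14, 4.21 and 4.26. Of these, 3 were in knockdown 1, the library with the greatest relative depth (2.97).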

How the results depend on the processing

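In the Nr5a2 knockdown the 2 E2 calls became 1 with a pseudocount of 0.1, median scaling, quantile normalization or the replicate block, and 0 with no filter on low values. With 1 library left out there were 0 to 2, with 0 without control 1. Ube2e3 was the call kept wherever 1 remained. Over all genes, in place of 128 higher and 57 lower, no filter gave 7 and 4, a pseudocount of 0.1 gave 73 and 35, median scaling 65 and 80, quantile normalization 68 and 71, and leaving out control 1 gave 13 and 8. The replicate block gave 37 and 18. Deviations from the group mean in same-numbered libraries correlated at 0.036, 0.082, -0.108 and -0.002, which shows no pairing by number. The labels name no pairs, so pairing is not excluded. In the Gata4 knockdown the count of E2 calls stayed at 0, with 0 to 1 when 1 library was left out (Ube2l6, without knockdown 2), and the replicate block gave 0. Past the fold rule, 4-cell to 8-cell fell from 2 members to 0 and ICM to mESC from 11 to 7 with a pseudocount of 5. The count over all steps was 57 and ranged from 46 to 68. The exchange of the early 2-cell for the zygote column was chosen after seeing the data. The balance of higher to lower turned with median scaling for 2-cell to 4-cell, from 1 and 5 members to 4 and 3, and over all genes in the Nr5a2 knockdown with median scaling and quantile normalization. Depth limits calls for members near 1 FPKM.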
